A study of Mus musculus with 19 samples.

Results

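BAP1 knockout clone 4 was set against BAP1 knockout clone 3, 2 lines made by CRISPR editing of Melan-a, a line of mouse melanocytes that grows without limit in culture. The comparison used 4 of the 10 bulk RNA libraries of the series, 2 cultures of each clone, and 10803 of the 13202 genes in the table, those whose stabilised values averaged 1 or more above the table's lowest. The other lines were the knockout clones 1 and 2 and the unedited parental line (WT), again with 2 cultures each, and they entered the fit to estimate the spread. All lines were untreated, and the labels name 1 batch for all of them. Each knockout line is 1 clone, and no line that had been edited and cloned with Bap1 intact was among the libraries, so effects of editing and of growing up from single cells cannot be told apart in these clones. Both clones carry the same genotype label, and the sources used here do not give the edits themselves. The labels call the 2 cultures of a line biological replicates without saying that they were grown apart, so p-values measure the spread between these cultures, which may be technical.

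BAP1 is a nuclear deubiquitinase that removes ubiquitin from histone H2A, against the ligase activity of Polycomb repressive complex 1, and works with ASXL proteins, HCFC1, OGT and forkhead factors. Its loss is common in uveal melanoma, a tumour of the melanocytes of the eye. Melanocytes come from the neural crest, which also gives rise to Schwann cells, and make melanin in lysosome-related organelles called melanosomes.

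The cultures of clone 4 held 35.6 and 30.8 M recovered reads, against 35.9 and 32.8 M in clone 3 and 30.8 to 46.8 M over the 10 libraries. The cultures of clone 4 differed more from each other (mean chi-square per gene 58.2) than those of clone 3 (9.94) or WT (2.38). The values for clone 1 (66.4) and clone 2 (57.0) were near that of clone 4, so clone 3 and WT were the lines with close cultures. Sampling noise alone gives a mean near 1. All 7 melanocyte markers were present at high levels, with sums of 1890100 and 1665500 normalised reads in clone 4, against 1373390 and 1391180 in clone 3. Markers of fibroblasts, keratinocytes, immune cells and endothelium had 2, 2, 3 and 4 of 7 genes in the table, and those of mast cells 0 of 7. The fibroblast gene Col1a2 stood at 2622 and 1828 reads in clone 4 and 3023 and 3085 in clone 3 (difference −0.45, SE 0.14, adjusted p = 0.0506 by limma). In bulk RNA, fewer cells of a kind and less RNA per cell cannot be told apart.

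Bap1 itself was lower in clone 4 than in clone 3. Normalised reads, the recovered reads divided by the size of the library, were 491 and 359 in clone 4, against 1193 and 1098 in clone 3 and 4449.7 and 4392 in WT. The values of the 3 lines did not overlap. Differences are given below on the stabilised scale, which is close to log2 for well-expressed genes and flattens for weakly expressed ones. On that scale Bap1 differed by −1.15 (SE 0.12, limma adjusted p = 0.000229) between the clones, and it stood −2.94 from WT in clone 4 and −1.79 in clone 3. Against WT, 36.5% of all tested genes differed in clone 4 and 39.8% in clone 3, and these comparisons share the WT cultures.

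Of 12 tested genes of the BAP1 complexes, 4 were lower in clone 4 and 0 were higher, with Bap1 itself counted among the 4. That is 33.3% past the threshold against 20.1% of all tested genes. The median difference was −0.13, against 0.01 over all tested genes. Ogt, the O-GlcNAc transferase bound to HCFC1, had 3728 and 5305 normalised reads in clone 4, against 8727 and 7349.6 in clone 3 and 3924 and 4311 in WT. Clone 3 was thus the high line for Ogt (difference −0.82, SE 0.16, adjusted p = 0.00674), a call that ended without clone 3 replicate 1 (adjusted p = 0.086). Hcfc1 and Asxl1, which encode partners of BAP1, differed by −0.48 (adjusted p = 0.0375) and −0.42 (0.0232). The call for Hcfc1 ended after chromosome centring, and the calls for both genes ended in the fits on the 4 libraries and on the 8 knockout libraries. Their calls ended without clone 3 replicate 1 (0.251 and 0.197) and without clone 3 replicate 2 (0.0963 and 0.0715). The count for the list was 1 without clone 3 replicate 1, and 2 without clone 3 replicate 2, clone 4 replicate 1, or either WT culture. Of 31 Polycomb genes, 2 were higher and 4 lower (median 0.03; 19.4%, near the 20.1%), and the count of 6 was 0 without either culture of clone 3 and 3 without either WT culture.

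Over all tested genes, 2174 differed between clone 4 and clone 3 at a limma adjusted p under 0.05, which is 20.1% of 10803. Of these, 1197 (11.1%) were higher and 977 (9.04%) lower in clone 4. The 2174 genes had a median absolute difference of 0.55, and 257 of them (2.38%) differed by at least 1, with 136 higher and 121 lower. The cultures of the clones did not overlap for any of the 2174, as for 59.2% of all tested genes. The count fell without either culture of clone 3, where the lone culture was assumed to vary like those of the other lines. The same was assumed without either culture of clone 4, where the count changed little. The fit pooled the spread over all lines, although mean chi-squares were 2.38 in WT, 9.94 in clone 3 and 58.2 in clone 4. The variable cultures of clone 4 were thus judged by a spread that the close cultures of clone 3 and WT helped to set. In the fit on the 8 knockout libraries, without WT, 1461 genes differed. Lower genes numbered 640 without either WT culture, and 641 when the WT libraries were left out of the fit.

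**Figure D1:**
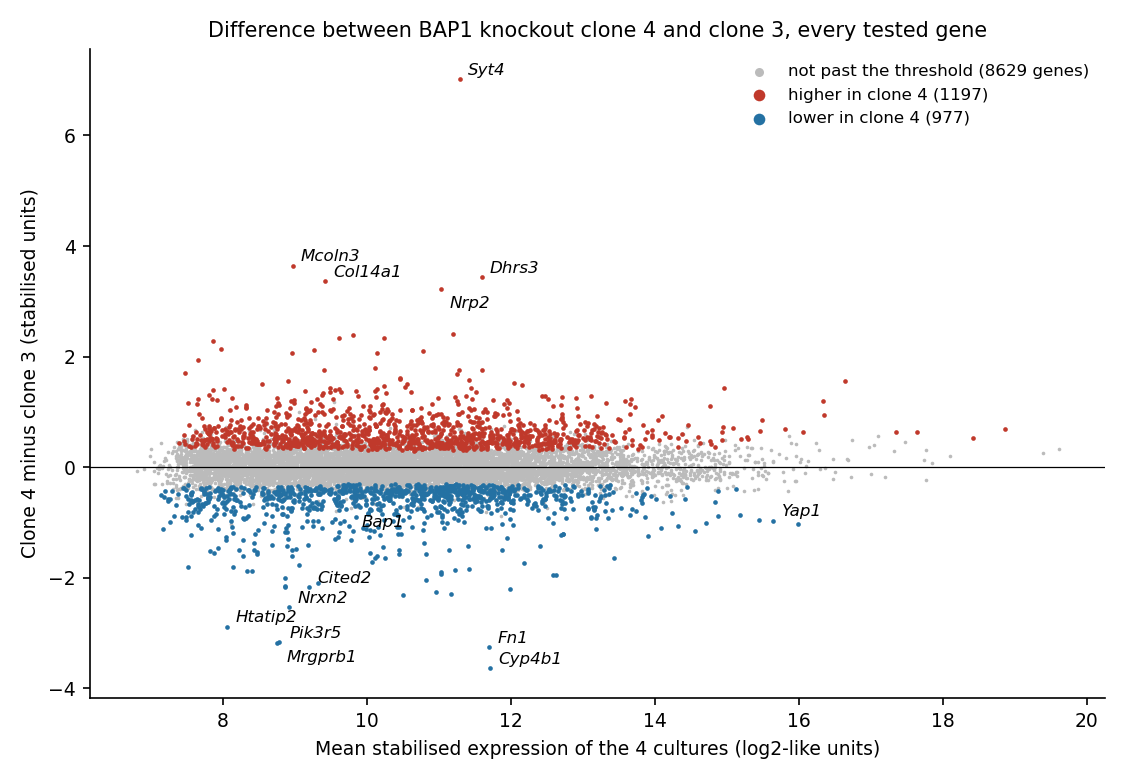
Each point is a tested gene, with the mean stabilised expression of the 4 cultures on the horizontal axis and the difference of clone 4 minus clone 3 in stabilised units on the vertical axis. The 1197 genes higher in clone 4 are red and the 977 lower are blue, with Syt4 standing alone at 7.03.

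The largest rise in clone 4 against clone 3 was that of Syt4, a synaptotagmin of vesicle membranes. It had 33177 and 24281 normalised reads in clone 4, against 80.5 and 55.5 in clone 3 and 6628 and 6703 in WT. Both cultures of clone 4 stood above WT and both of clone 3 far below it (difference 7.03, SE 0.15, adjusted p = 2.89e-09). Mcoln3, a cation channel of endosomes and lysosomes of the mucolipin family, had 1690.0 and 1473 reads in clone 4, while clone 3 had 16.7 and 10.4 and WT had 131 and 116. It too lay on either side of the parental level (difference 3.65, SE 0.13, adjusted p = 2.07e-07). Dhrs3, which reduces retinaldehyde to retinol, had 8752 and 11325 reads in clone 4, against 739 and 766 in clone 3 and 5102 and 5306 in WT (difference 3.44, SE 0.16, adjusted p = 8.43e-07).

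Nrp2, a co-receptor for class 3 semaphorins and vascular growth factors, had 4231 and 8967 normalised reads in clone 4, against 522 and 481 in clone 3 and 2938 and 2978 in WT. The cultures of clone 4 lay far apart, but both were above WT and both of clone 3 were below it (difference 3.22, SE 0.26, adjusted p = 4.79e-05). The tetraspanin Tspan32 had 4295 and 6258 reads in clone 4, while clone 3 had 799.9 and 863 and WT had 2044 and 2059 (difference 2.40, SE 0.17, adjusted p = 1.67e-05). Npy1r, a receptor of neuropeptide Y, had 461 and 255 reads in clone 4, against only 3.14 and 4.62 in clone 3 and 556 and 538 in WT (difference 2.14, SE 0.18, adjusted p = 6.22e-05). The difference of clone 4 from WT did not pass the threshold for Npy1r (−0.48, adjusted p = 0.0623).

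Col14a1, the fibril-associated collagen XIV, had 1910.3 and 2112 normalised reads in clone 4, against 63.8 and 61.2 in clone 3 and 1236 and 1164 in WT (difference 3.37, SE 0.15, adjusted p = 8.36e-07). Matn2, the matrix adaptor matrilin 2, had 619.6 and 1832 in clone 4, against 139 and 125 in clone 3 and 673 and 692 in WT (difference 2.11, SE 0.34, adjusted p = 0.00237). The cultures of clone 4 lay on both sides of WT for Matn2, and those of clone 3 below all of them. Tgm2, the cross-linking enzyme transglutaminase 2, had 2290.1 and 2762 reads in clone 4, while clone 3 had 334 and 381 and WT had 9434 and 9453. Both clones were below WT for Tgm2, and clone 3 was further below (difference 2.34, SE 0.11, adjusted p = 8.36e-07). Id4, an inhibitor of basic helix-loop-helix factors, had 1318 and 2591 in clone 4, against 213 and 221 in clone 3 and 3028 and 3038 in WT (difference 2.40, SE 0.22, adjusted p = 0.000103). Prl7a2, a prolactin relative known from the placenta, had 1851 and 1325 in clone 4, against 189 and 173 in clone 3 and only 9.53 and 4.4 in WT. Both clones were thus above WT for Prl7a2, clone 4 more so (difference 2.33, SE 0.14, adjusted p = 4.73e-06).

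**Figure D2:**
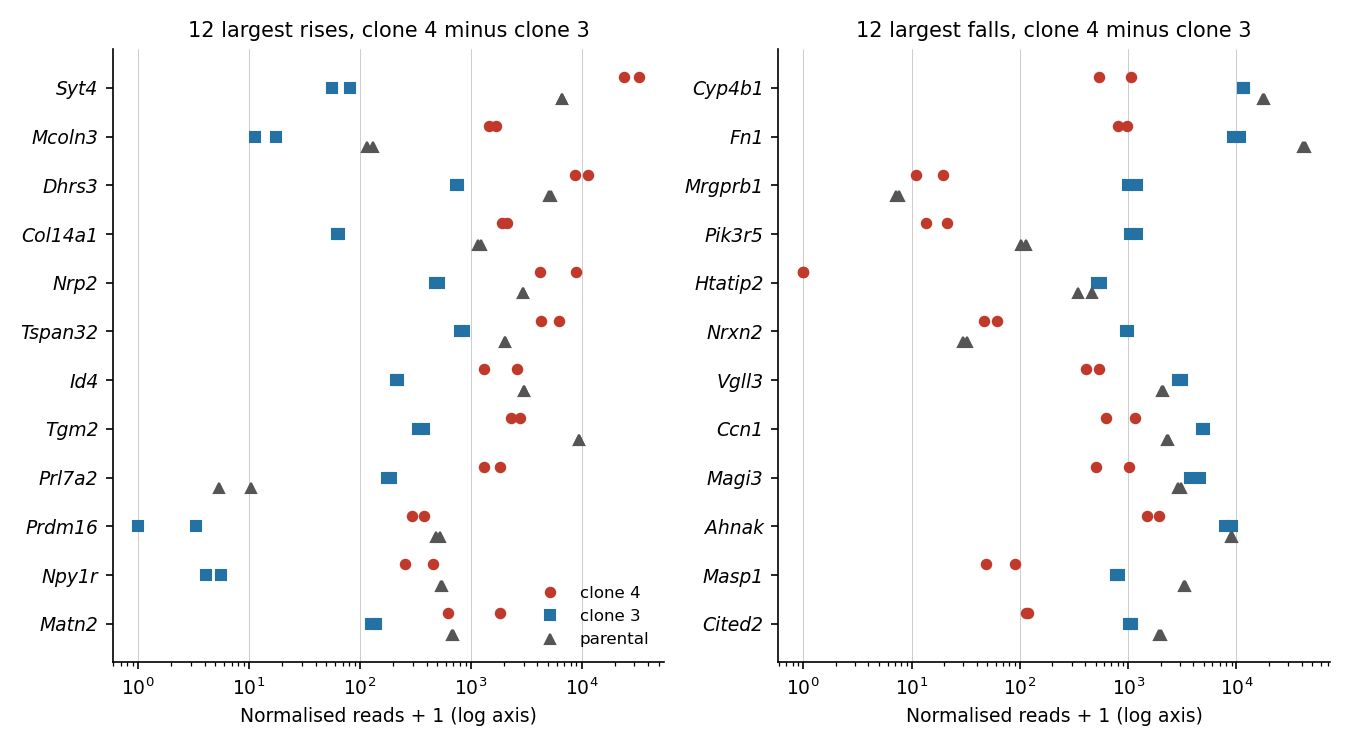
Normalised reads plus 1 (log axis) for the 12 genes that rose most and the 12 that fell most in clone 4 against clone 3, with 1 point per culture for clone 4 (red circles), clone 3 (blue squares) and WT (grey triangles). Cultures of clone 4 and clone 3 do not overlap for any of these genes, while WT lies near clone 4 for some and near clone 3 for others.

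The largest fall was that of Cyp4b1, a cytochrome P450. It had 1054 and 541 normalised reads in clone 4, against 11485 and 11707 in clone 3 and 17801 and 17629 in WT. Clone 4 was the line that stood apart (difference −3.64, SE 0.23, adjusted p = 9.79e-06), and the difference of clone 3 from WT did not pass the threshold (−0.60, adjusted p = 0.0621). Fn1, the matrix glycoprotein fibronectin, had 799 and 985 reads in clone 4, while clone 3 had 10736 and 9326 and WT had 42640.3 and 41364 (difference −3.25, SE 0.31, adjusted p = 0.000126). The order of the 3 lines was the same for the complement protease Masp1, with 89.5 and 47.9 in clone 4, against 775 and 822 in clone 3 and 3339.7 and 3278 in WT (difference −2.17, SE 0.12, adjusted p = 3.45e-06). Cited2, a co-regulator that binds CBP and p300, followed that order as well, with 112 and 119 in clone 4, while clone 3 had 1016 and 1091 and WT had 1946 and 2023 (difference −2.17, SE 0.11, adjusted p = 1.96e-06).

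For some of the falls, clone 3 stood above WT. Pik3r5, a regulatory subunit of the phosphoinositide kinase PI3K gamma, had 12.6 and 20.2 normalised reads in clone 4, against 1202 and 1035 in clone 3 and 101 and 113 in WT. Clone 3 stood above WT and clone 4 below it (difference −3.16, SE 0.13, adjusted p = 4.75e-07). Nrxn2, a presynaptic adhesion protein of the neurexin family, had 45.9 and 60.5 in clone 4, against 950.5 and 996 in clone 3 and 31.4 and 29.0 in WT (difference −2.53, SE 0.12, adjusted p = 8.36e-07). For Nrxn2, the difference of clone 4 from WT did not pass the threshold (0.25, adjusted p = 0.124). Mrgprb1, a receptor known from mouse mast cells, had 18.4 and 10.1 in clone 4, while clone 3 had 1214 and 1001 and WT had 6.67 and 6.16 (difference −3.18, SE 0.12, adjusted p = 3.21e-07). The 7 mast cell markers were not in the table.

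Of the remaining large falls, Ahnak, a giant scaffold protein, had 1923 and 1499 normalised reads in clone 4, against 9104 and 7856 in clone 3 and 9069 and 8809 in WT (difference −2.19, SE 0.28, adjusted p = 0.000542). The junctional scaffold Magi3 had 1017 and 508 in clone 4, against 4642 and 3760.3 in clone 3 and 2900.4 and 3067 in WT (difference −2.26, SE 0.24, adjusted p = 0.000238). Vgll3, a cofactor of TEAD transcription factors, had 408 and 538 in clone 4, while clone 3 had 3157 and 2884 and WT had 2059 and 2103, with clone 3 above WT (difference −2.30, SE 0.12, adjusted p = 2.16e-06). Leaving out any of the 10 libraries in turn ended the call of 0 of the 24 genes plotted by culture.

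Picked after their values were seen, 9 genes were read in both cultures of one clone (at least 50 normalised reads) and at most 3 times in each culture of the other. Thap3, Prdm16 and C4b were read in clone 4, and Lmod1, Glt1d1, Nlrp4e, Mrgprx2, Htatip2 and Rgs11 in clone 3. Htatip2, an oxidoreductase, had 0 reads in both cultures of clone 4, 512 and 565 normalised reads in clone 3 and 466 and 342 in WT. It was at least 298-fold lower in clone 4, taking 3 reads over both cultures as the floor (difference −2.88, SE 0.13, adjusted p = 6.93e-07, where the fitted difference is no bound). Htatip2 was nearly silent in clone 1 as well (1.47 and 0 normalised reads), while clone 2 had 498 and 541. Prdm16, a zinc finger regulator known from brown fat, had 297 and 379.6 in clone 4 against 0 and 2 reads in clone 3, a ratio of 307 (exact Poisson 95% interval 85.1 to 2540). WT had 531 and 484 normalised reads of Prdm16, so that clone 3 was the line that stood apart. Thap3, which encodes a zinc finger protein of the THAP family, had 133 and 175 in clone 4, 0 reads in both cultures of clone 3 and 107 and 119.7 in WT. It was at least 93.4-fold higher in clone 4. The complement gene C4b, which has a near-copy, C4a, that could take part of its reads, had 153 and 314 in clone 4 against 0 and 1 reads in clone 3 (ratio 424, interval 76.1 to 16700), and 1792 and 1713 in WT. These intervals and floors cover counting error only.

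Mrgprx2 had 0 reads in both cultures of clone 4, 188 and 158 normalised reads in clone 3 and 0.95 and 3.52 in WT. It was at least 95.9-fold lower in clone 4. Mrgprx2 was also read in the other knockout clones, at 209 and 168 normalised reads in clone 1 and 1839 and 1500 in clone 2. The regulator of G protein signalling Rgs11 had 0 reads in clone 4, against 88.9 and 92.5 in clone 3 and 3.81 and 1.76 in WT, and was at least 50.2-fold lower in clone 4. Glt1d1, of the glycosyltransferase family, had 0 reads in clone 4, while clone 3 had 165 and 147 and WT had 41 and 31.7, and was at least 86.4-fold lower in clone 4. Nlrp4e, of the NLR family, had 0 reads in clone 4, against 52.3 and 52.0 in clone 3 and 0 and 1.76 in WT, and was at least 28.9-fold lower in clone 4. Clone 1 too had few normalised reads of Glt1d1 (3.68 and 1.13) and of Nlrp4e (0 and 0). In clone 2, Glt1d1 had 103 and 79.4 and Nlrp4e 44.3 and 38.4. Lmod1, the smooth muscle actin nucleator leiomodin 1, had 2 and 0 reads in clone 4 and 65.9 and 78.6 normalised reads in clone 3, and 89.6 and 97.7 in WT (clone 3 over clone 4 ratio 60.0, interval 16.6 to 495). The filter on low values left Lmod1, Glt1d1, Nlrp4e and Rgs11 out of the test.

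The sequences before the start of 3 genes are shown because Mrgprb1 and Mrgprx2, which lie close together on chromosome 7, were both read in clone 3 and were nearly or fully silent in clone 4 and WT, and because Thap3 was the gene with 0 reads in clone 3. The 250 bases before the annotated start were taken from RefSeq (GRCm38.p6), which held 6 of the 9 genes above and Mrgprb1. They are Mrgprb1 (chr7:48456343-48456592, minus strand), Mrgprx2 (chr7:48499271-48499520, minus strand) and Thap3 (chr4:151988987-151989236, minus strand), written 5′ to 3′ in lower case with each CG pair in capitals.
Mrgprb1: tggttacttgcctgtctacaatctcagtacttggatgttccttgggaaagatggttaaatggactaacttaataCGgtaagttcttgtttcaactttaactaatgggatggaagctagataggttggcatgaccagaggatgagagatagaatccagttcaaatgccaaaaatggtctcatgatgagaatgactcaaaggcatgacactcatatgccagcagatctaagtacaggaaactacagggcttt
Mrgprx2: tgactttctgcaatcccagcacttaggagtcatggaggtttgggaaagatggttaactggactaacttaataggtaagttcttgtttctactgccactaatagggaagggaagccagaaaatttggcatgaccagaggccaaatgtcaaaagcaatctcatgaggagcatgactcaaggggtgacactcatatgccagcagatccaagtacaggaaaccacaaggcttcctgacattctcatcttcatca
Thap3: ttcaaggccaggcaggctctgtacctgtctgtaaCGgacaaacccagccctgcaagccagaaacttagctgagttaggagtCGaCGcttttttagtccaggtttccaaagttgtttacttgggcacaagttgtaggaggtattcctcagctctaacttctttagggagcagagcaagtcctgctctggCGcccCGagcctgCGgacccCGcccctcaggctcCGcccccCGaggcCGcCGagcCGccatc
The promoters of Mrgprb1 and Mrgprx2 held 185 identical bases in 250 aligned columns (74.0% identity), and reads of these related genes may be shared in the counting. They held 1 and 0 CG pairs, against a median of 6 over 27025 promoters of the same length, 29.6% of which had at most 2. Thap3 held 12, Htatip2 17 and Prdm16 22, and 27.5% of all promoters had at least 15. The window of Htatip2 ran past the outermost start of the gene, and that of Prdm16 lay within the gene's outer bounds. The CG counts of these genes are therefore not wholly from sequence before the outermost start. The promoters of Lmod1 and Nlrp4e held 6 and 0. The letters of the E-box motifs CACGTG (in 6.05% of all promoters) and CATGTG (12.2%), searched on both strands, were in 0 of the 7 windows.

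Of 36 tested genes of melanin synthesis and the melanosome, 3 were higher and 2 lower in clone 4 (median 0.06), which is 13.9% past the threshold against 20.1% of all tested genes. Gpr143, the melanosomal receptor mutated in ocular albinism, had 13644 and 10131 normalised reads in clone 4, against 6682 and 6754 in clone 3 and 6487 and 6539 in WT (difference 0.79, SE 0.14, adjusted p = 0.00327). Both cultures of clone 4 lay above the other lines. Mgrn1, a ubiquitin ligase needed for normal coat colour, had 3961 and 3790.5 in clone 4, while clone 3 had 6194 and 6259.9 and WT had 4587 and 4408, and clone 3 was the high line (difference −0.66, SE 0.11, adjusted p = 0.00327). Dct, the dopachrome tautomerase of melanin synthesis, had 673055 and 544070.0 normalised reads in clone 4, against 372979 and 375455 in clone 3 and 432989 and 429395 in WT (difference 0.69, SE 0.18, adjusted p = 0.0227), a call that ended without clone 3 replicate 1 (adjusted p = 0.155) or 2 (adjusted p = 0.128), clone 4 replicate 1 or either WT culture, and in the fit on the 8 knockout libraries. After quantile normalisation the difference for Dct was 0.00. Mitf, the master regulator of the lineage, differed by 0.15 (adjusted p = 0.36), Tyr, the rate-limiting enzyme of melanin synthesis, by 0.27 (0.201), and the lineage factor Sox10 by 0.12 (0.67), none past the threshold. The count of 5 was 3 without clone 3 replicate 1.

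Regulators and receptors of the lineage were lower more often than higher, with 8 of 28 lower and 2 higher (median −0.09; 35.7% past the threshold against 20.1% of all tested genes). Axl, a receptor tyrosine kinase, had 9522 and 14334 normalised reads in clone 4, against 25509.6 and 24715 in clone 3 and 14647 and 14076 in WT. Clone 3 was above WT for Axl, and of the cultures of clone 4 one was within the WT values and the other below them (difference −1.09, SE 0.17, adjusted p = 0.00188). Pax3, the neural crest factor upstream of Mitf, had 8201 and 8428 in clone 4, against 12107 and 11529 in clone 3 and 6991 and 7256 in WT (difference −0.50, SE 0.10, adjusted p = 0.0084). The call for Pax3 ended without clone 3 replicate 1 (adjusted p = 0.0923) and without clone 3 replicate 2 (0.052). The list's count of 10 was 1 without clone 3 replicate 1 and 4 without clone 3 replicate 2.

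Genes shared with Schwann cells, the glial relatives of melanocytes, were more often higher than lower in clone 4. Of 11 tested, 5 were higher and 1 lower, with a median of 0.41 and 54.5% past the threshold against 20.1% of all tested genes. Gpr37, a receptor of glia, had 457 and 439 normalised reads in clone 4, while clone 3 had 76.3 and 63.6 and WT had 5836 and 5492 (difference 1.5, SE 0.17, adjusted p = 0.000316), and Cdh19, a cadherin of Schwann cell precursors, had 449 and 526 in clone 4, against 199 and 161 in clone 3 and 2283 and 2295 in WT (difference 0.94, SE 0.16, adjusted p = 0.00291). Of the Schwann markers, Mbp did not pass (0.01, adjusted p = 0.965), Pmp22 had at most 1.16 normalised reads in the 4 cultures, and Ngfr was not in the table. The summed reads of the 6 Schwann markers in the table were 7029 and 10098 in clone 4, against 4902 and 5229 in clone 3 and 26626 and 26364 in WT. The list's count was 3 without either culture of clone 3 and 4 without clone 4 replicate 1.

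Synaptic genes other than Syt4 were lower where they passed the threshold. Of 24 tested genes of synaptic vesicles and adhesion, Syt4 was the 1 that was higher and 9 were lower (median −0.15), or 41.7% against 20.1% of all tested genes. Sv2a, a vesicle glycoprotein, had 2778 and 3111 normalised reads in clone 4, against 11838 and 11950.0 in clone 3 and 4522 and 4305 in WT (difference −1.95, SE 0.11, adjusted p = 4e-06). Syt7, a slow calcium sensor, had 239 and 319 in clone 4, while clone 3 had 893 and 683 and WT had 234 and 177, with clone 3 above both (difference −1.10, SE 0.14, adjusted p = 0.000652). On chromosome 7 lay 3 of the 9, and after centring each chromosome 6 were lower. The count of 10 was 4 without clone 3 replicate 1 and 6 without clone 3 replicate 2.

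Of 36 guidance and adhesion genes of neurons, 3 were higher and 5 lower (median −0.03), a share of 22.2% that is near the 20.1% of all tested genes. Alcam, an adhesion molecule of the immunoglobulin family, had 511 and 567 normalised reads in clone 4, against 1845 and 1699.9 in clone 3 and 2466 and 2577 in WT (difference −1.44, SE 0.10, adjusted p = 2.06e-05). The guidance ligand Slit2 had 584 and 329 in clone 4, against 1858 and 1671 in clone 3 and 1078 and 1042 in WT (difference −1.65, SE 0.19, adjusted p = 0.000312). Sema3c, a ligand of neuropilins, had 20.7 and 0 in clone 4, while clone 3 had 138 and 111 and WT had 878 and 897 (difference −1.22, SE 0.18, adjusted p = 0.00132). Nrp2 and Sema3c, receptor and ligand, thus moved in opposite directions between the clones. The count of 8 was 4 without either culture of clone 3. The median of 10 potassium channel genes was 0.21, and 0.23 after centring each chromosome. With the end of chromosome 4 centred apart it was 0.01, with 3 higher and 2 lower. Before centring, 4 were higher and 2 lower, or 60% against 20.1%. That count fell to 2 and 1 without clone 3 replicates 1 and 2, and to 4 without clone 4 replicate 2 or either WT culture.

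Matrix genes changed often and in both directions. Of 22 tested matrix and matricellular genes, 6 were higher and 6 lower in clone 4, or 54.5% against 20.1% of all tested genes (median −0.05). That median was 0.23 without clone 4 replicate 1 and −0.25 without clone 4 replicate 2. Fbln1, the elastic fibre protein fibulin 1, had 3482 and 4929 normalised reads in clone 4, against 1185 and 1146 in clone 3 and 2465 and 2266 in WT (difference 1.68, SE 0.22, adjusted p = 0.000762). Emilin1, another elastic fibre protein, had 62.0 and 90.8 in clone 4, while clone 3 had 320.0 and 383 and WT had 775 and 769 (difference −1.20, SE 0.15, adjusted p = 0.000586). Ccn1, a matricellular protein, had 617 and 1153 in clone 4, against 4796 and 4984 in clone 3 and 2325 and 2271 in WT, with the clones on opposite sides of WT (difference −2.29, SE 0.32, adjusted p = 0.00104). Of the 6 that were higher, Fbln1, Matn2 and Agrn lie on chromosome 15 or distal chromosome 4, described below. The count was 7 without either culture of clone 3. Among 22 metalloproteinases and inhibitors, 2 were higher and 4 lower, a share of 27.3%, with Adam19, a membrane metalloproteinase, at 109 and 137 in clone 4, while clone 3 had 690.1 and 675 and WT had 1248 and 1203 (difference −1.61, SE 0.11, adjusted p = 1.67e-05). That count was 2 without clone 3 replicate 1, 1 without clone 3 replicate 2 and 3 without either WT culture. Of 17 integrins and cadherins, 1 was higher and 1 lower (11.8%), and of 15 collagens 1 was higher and 2 lower (20%, near the 20.1% of all tested genes). The collagen median of −0.13 was 0.10 without clone 4 replicate 1 and −0.46 without clone 4 replicate 2, so its sign depended on the culture kept. The collagen count of 3 was 1 without either culture of clone 3 and 6 without either culture of clone 4 or of clone 1, and that of integrins and cadherins was 1 without either culture of clone 3.

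Genes of energy metabolism that passed the threshold were higher in clone 4. Of 27 genes of glycolysis and hypoxia, 11 were higher and 0 lower, with a median of 0.37. That is 40.7% past the threshold, against 11.1% of all tested genes that were higher and 20.1% that differed in either direction. Pfkl, a subunit of the glycolytic enzyme phosphofructokinase, had 9562 and 10878 normalised reads in clone 4, against 4052 and 4229 in clone 3 and 5377 and 5086 in WT (difference 1.26, SE 0.13, adjusted p = 0.00018). Pdk1, which restrains pyruvate dehydrogenase, had 713 and 712 in clone 4, against 296 and 258 in clone 3 and 428 and 449.8 in WT (difference 0.99, SE 0.14, adjusted p = 0.000899). Eno1, the glycolytic enolase, whose reads may be shared with its copies, had 49329 and 55166 in clone 4, while clone 3 had 18349 and 20111 and WT had 27692 and 26619 (difference 1.43, SE 0.22, adjusted p = 0.00165). For all 3, clone 4 stood above WT and clone 3 below it. Eno1, Pfkm and Ndrg1 lie on chromosome 15 or distal chromosome 4, and after centring chromosomes and that segment 9 genes were higher and 1 lower. The count of 11 was 3 and 4 without clone 3 replicates 1 and 2, and 7 without either WT culture. Of 54 nuclear genes of oxidative phosphorylation, 13 were higher and 0 lower (median 0.23), and 6 of the 13 lay on chromosomes 15 and 18. Their share of 24.1% was above the 11.1% of all tested genes that were higher, but near the 20.1% that differed in either direction. After centring 7 were higher, and the count was 0 and 3 without clone 3 replicates 1 and 2, 3 higher and 1 lower without clone 4 replicate 1, 24 without clone 4 replicate 2 and 6 without either WT culture. Sdha, a subunit of succinate dehydrogenase, was among them (difference 0.51, SE 0.09, adjusted p = 0.00462), and its call ended without clone 3 replicate 1 (adjusted p = 0.0602). All 7 tested mitochondrially encoded genes had positive differences (median 0.33, 2 past the threshold and 0 without clone 4 replicate 1 or any culture of clone 3 or WT), with summed reads of 2250690 and 2149010 in clone 4, against 1749060 and 1613150 in clone 3. The part of this RNA quality marker in the metabolic differences was not tested.

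Of 26 genes of cholesterol synthesis and uptake, 8 were higher and 1 lower (median 0.21), which is 34.6% past the threshold against 20.1% of all tested genes. Sqle, the squalene epoxidase, had 14917 and 15852 normalised reads in clone 4, against 8366 and 8217 in clone 3 and 12414 and 12239 in WT (difference 0.88, SE 0.10, adjusted p = 0.000292). Of 19 genes of iron handling and the STEAP family, 7 were higher and 2 lower (median 0.28; 47.4% against 20.1%). Transferrin, Trf, had 17381 and 22375 in clone 4, against 8260.3 and 8332 in clone 3 and 10352 and 10088 in WT (difference 1.23, SE 0.15, adjusted p = 0.00045). Its rise went with that of Hfe, a regulator of iron uptake (difference 0.64, SE 0.09, adjusted p = 0.00104). The metalloreductases Steap1 and Steap2, neighbours on chromosome 5, were both lower in clone 4. Steap1 had 992 and 811 in clone 4, while clone 3 had 3862 and 3794 and WT had 389.7 and 364 (difference −1.89, SE 0.29, adjusted p = 0.0017), and Steap2 had 819 and 957 in clone 4, against 4029.8 and 3726 in clone 3 and 1530.2 and 1569 in WT (difference −1.92, SE 0.12, adjusted p = 6.32e-06). Of 37 lysosome genes, 7 were higher and 0 lower (median 0.23), a share of 18.9% that is near the 20.1% past the threshold among all tested genes. They were led by Mcoln3 and by Tcirg1, a subunit of the proton pump (difference 0.88, SE 0.11, adjusted p = 0.000593). Without clone 3 replicates 1 and 2 the counts were 2 and 3 for cholesterol, 5 and 4 for iron and 2 and 2 for lysosome genes. The lysosome count was 3 without either WT culture, and without clone 4 replicate 1 it was 6 higher and 4 lower.

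Of 35 S-phase genes 1 was higher (2.86%), and of 32 genes of G2 and M phase 1 was higher (3.12%), against 11.1% of all tested genes. The medians were 0.17 and 0.28, and they were larger in 1 culture of clone 4. Against the mean of clone 3, the median S-phase gene stood at 0.03 in clone 4 replicate 1 and 0.33 in replicate 2, and the median gene of G2 and M phase at 0.12 in replicate 1 and 0.46 in replicate 2. Without clone 4 replicate 1, 13 S-phase genes and 12 genes of G2 and M phase were higher. Both counts were 0 without either culture of clone 3, and that of G2 and M phase was 4 without either culture of clone 2 and 2 without clone 4 replicate 2 or either culture of clone 1. Ribosomal protein genes, many with pseudogene copies, went the other way between the cultures, with medians of 0.15 in clone 4 replicate 1 and −0.34 in replicate 2 and 2 of 79 (2.53%) past the threshold. Without clone 4 replicate 1, 10 were lower and 1 higher. The count of 2 was 4 without clone 4 replicate 2 or either culture of clone 2, 7 without either culture of clone 1, and 1 without either culture of clone 3.

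Among 27 genes of the p53 axis and inhibitors of cyclin-dependent kinases, 5 were higher and 4 lower (median 0.09), or 33.3% against 20.1% of all tested genes. Aen, a nuclease induced by p53, had 698 and 667 normalised reads in clone 4, against 1490.0 and 1496 in clone 3 and 833 and 774 in WT (difference −0.96, SE 0.14, adjusted p = 0.00158). Rrm2b, the p53-induced subunit of ribonucleotide reductase, had 2295 and 1903 in clone 4, while clone 3 had 1144 and 1056 and WT had 1463 and 1558 (difference 0.83, SE 0.15, adjusted p = 0.00374). These 2 targets of p53 moved in opposite directions, and they lie on chromosomes 7 and 15, whose medians differed in those directions. After centring, Aen differed by −0.70 and Rrm2b by 0.53, both past the threshold. The count of 9 was 3 and 4 without clone 3 replicates 1 and 2, and 6 without clone 4 replicate 1 or either WT culture.

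Of 28 genes of MAPK feedback and AP-1, 3 were lower and 0 higher (median −0.15), a share of 10.7% against 9.04% lower and 11.1% higher among all tested genes. The list's median was 0.08 without clone 4 replicate 1 and −0.41 without clone 4 replicate 2. Fosl2, an AP-1 subunit, had 2440.4 and 2208 normalised reads in clone 4, against 6113 and 5779 in clone 3 and 1258 and 1239 in WT. Both clones stood above WT for Fosl2, clone 3 by more (difference −1.29, SE 0.22, adjusted p = 0.00319). The stress factor Atf3 had 1434 and 910.4 in clone 4, against 2271 and 2353 in clone 3 and 1352 and 1434 in WT (difference −0.91, SE 0.17, adjusted p = 0.00527). The list's count was 6 without clone 4 replicate 2. Of 23 genes of the Wnt pathway and its targets, 7 were lower and 2 higher (median −0.18), or 39.1% against 20.1%. Sfrp1, a secreted Wnt inhibitor, had 97.5 and 160.1 in clone 4, while clone 3 had 761 and 842 and WT had 1229 and 1243 (difference −1.77, SE 0.18, adjusted p = 0.000181). Axin2, the feedback inhibitor and common reporter of the pathway, had 958 and 851 in clone 4, against 1614 and 1609.7 in clone 3 and 1527 and 1489 in WT, so that clone 3 lay near WT (difference −0.73, SE 0.10, adjusted p = 0.000866). The Wnt count of 9 was 4 without either culture of clone 3, and 6 without clone 4 replicate 2 or either WT culture.

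Of 19 clock genes, 4 were higher and 5 lower (median 0.05), or 47.4% against 20.1% of all tested genes. Bmal1, the activator at the core of the circadian loop, had 137 and 140.0 normalised reads in clone 4, against 385 and 366 in clone 3 and 623 and 588 in WT (difference −0.87, SE 0.10, adjusted p = 0.000296). Cry2, a repressor in the loop, had 960.3 and 1043 in clone 4, while clone 3 had 456 and 471 and WT had 652 and 619 (difference 0.88, SE 0.11, adjusted p = 0.000437). The sources used here give no time of harvest, and its part in these values was not tested. The count was 3 and 6 without clone 3 replicates 1 and 2.

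Of 28 genes of the unfolded protein and amino acid responses, 1 was higher and 5 lower (median −0.20), a share of 21.4% that is near the 20.1% of all tested genes. Nupr1, a small stress-induced nuclear protein, had 680.4 and 342 normalised reads in clone 4, against 1186 and 1310.4 in clone 3 and 3147 and 3146 in WT (difference −1.10, SE 0.19, adjusted p = 0.00317). Of 22 genes of NRF2 and ferroptosis, 4 were higher and 3 lower (median 0.08; 31.8%), with Txnrd1, a thioredoxin reductase, at 9738 and 10726 in clone 4, while clone 3 had 18004 and 17458 and WT had 8609.8 and 8369.9 (difference −0.78, SE 0.14, adjusted p = 0.00441), a call that ended without clone 3 replicate 1 (adjusted p = 0.0528). Of 18 imprinted genes, 3 were higher and 4 lower (median −0.04; 38.9%). Slc22a18, a transporter gene of the imprinted cluster at the end of chromosome 7, had 928 and 1202 in clone 4, against 168 and 229 in clone 3 and 1132 and 1143 in WT, and was higher in clone 4 although the chromosome's median was lower (difference 1.76, SE 0.15, adjusted p = 6.41e-05). The counts of 6, 7 and 7 were 2, 0 and 2 without clone 3 replicate 1, and 3, 2 and 3 without clone 3 replicate 2. The imprinted count was 4 without clone 4 replicate 1.

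Of 33 genes of TGF-beta and BMP signalling, 2 were higher and 1 lower (median 0.04), or 9.09% against 20.1% of all tested genes. Id4 led the rises, and Ltbp4, which binds latent TGF-beta, had 255 and 266 normalised reads in clone 4, against 639.9 and 700.3 in clone 3 and 547 and 495 in WT (difference −0.98, SE 0.13, adjusted p = 0.000938). The count of 3 was 6 without either culture of clone 4, and 2 without clone 3 replicate 1. Of 15 genes of the Gq pathway, which is activated by mutation in most uveal melanomas, 2 were higher and 3 lower (median 0.14; 33.3%). Prkca, a protein kinase C, had 367 and 588 in clone 4, while clone 3 had 182 and 176 and WT had 578 and 547 (difference 0.90, SE 0.18, adjusted p = 0.00612), a call that ended without clone 3 replicate 1 (adjusted p = 0.0538) or 2 (0.052). The Gq count of 5 was 1 without either culture of clone 3, 3 without clone 4 replicate 2 or either WT culture, and 6 without clone 4 replicate 1. Of 9 genes used to class uveal melanomas, 1 was higher and 1 lower (22.2%). Satb1, a chromatin organiser, had 532 and 661 in clone 4, against 1491 and 1429 in clone 3 and 1446 and 1442 in WT (difference −1.09, SE 0.12, adjusted p = 0.000238). That count of 2 was 1 without either culture of clone 3.

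Interferon-stimulated genes had a positive median of 0.33 with 4 of 25 higher and 1 lower, or 20%, near the 20.1% of all tested genes. Xaf1, an interferon-induced promoter of cell death, had 465 and 498 normalised reads in clone 4, against 116 and 120.2 in clone 3 and 354 and 328 in WT (difference 1.24, SE 0.19, adjusted p = 0.00177). Of 15 genes of MHC class I presentation, 1 was higher and 1 lower (median 0.01; 13.3%). Cd200r4, an activating receptor of the CD200 receptor family, had 27.5 and 11.3 in clone 4, while clone 3 had 373 and 322 and WT had 960.5 and 1012 (difference −1.80, SE 0.13, adjusted p = 2.54e-05). Csf1, the growth factor of macrophages, had 122 and 322 in clone 4, against 589.7 and 631 in clone 3 and 1912 and 1874 in WT (difference −1.08, SE 0.21, adjusted p = 0.00548), a call that ended without clone 3 replicate 2 (adjusted p = 0.0511). The interferon count of 5 was 1 without clone 3 replicate 1, and 9 without either culture of clone 1. That of MHC class I was 0 and 1 without clone 3 replicates 1 and 2.

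**Figure D3:**
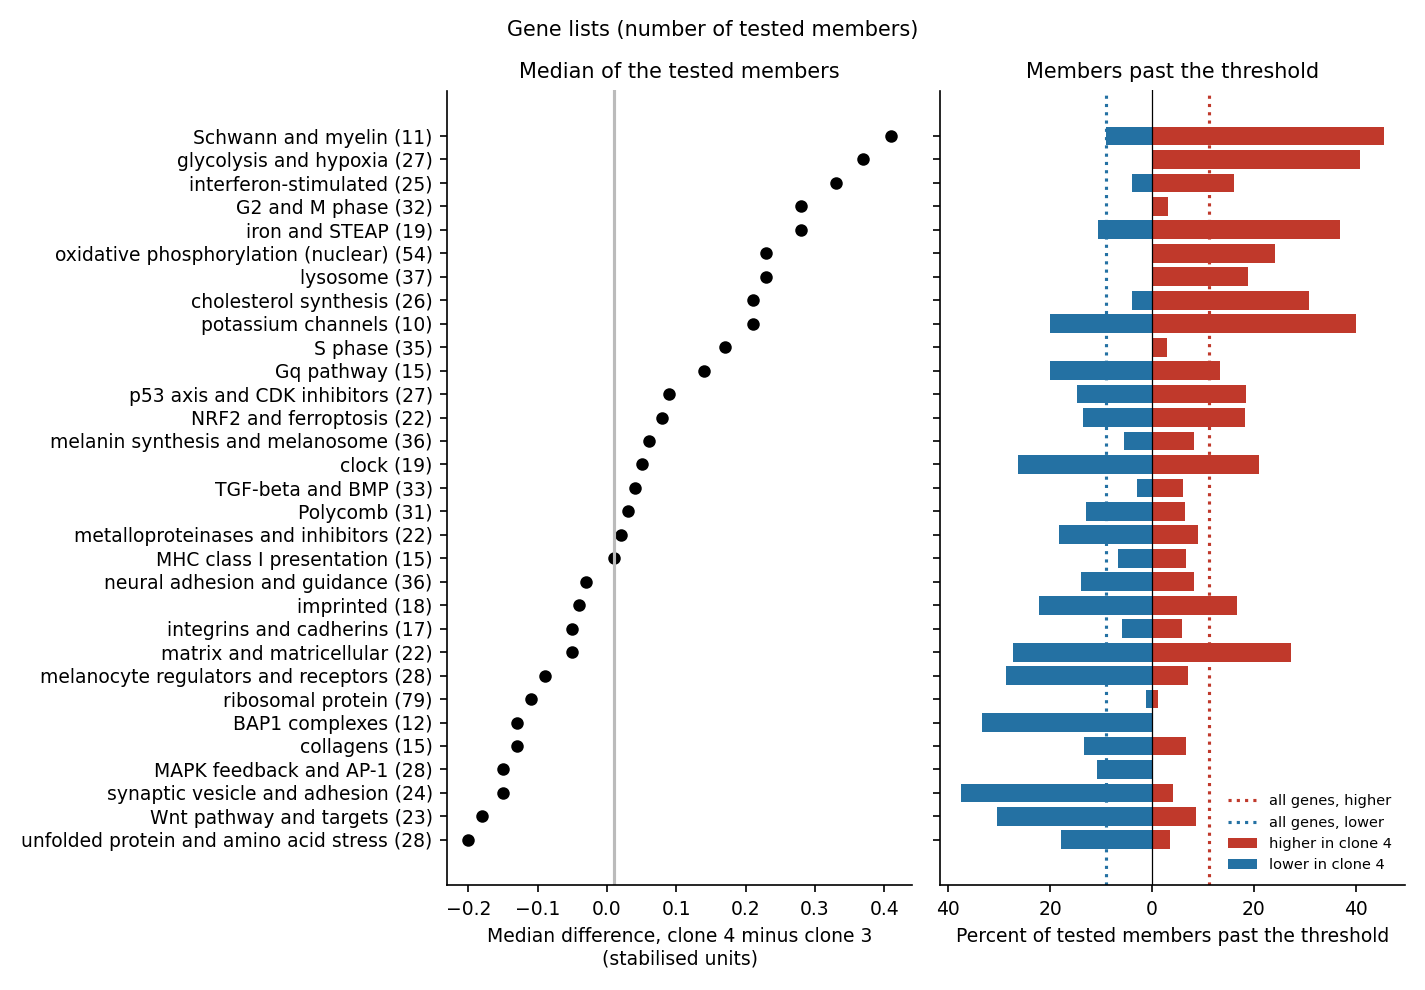
Gene lists with at least 10 tested members, without the list of YAP and TAZ targets drawn up after values were seen, ordered by the median difference of clone 4 minus clone 3 (left, stabilised units, with the median of all tested genes as a grey line) and with the percent of members past the threshold (right, red higher and blue lower in clone 4, dotted lines for all tested genes). Schwann and myelin genes top the medians at 0.41, and of the lists plotted the unfolded protein and amino acid stress list is lowest at −0.20.

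Differences between the clones were spread unevenly over the genome. On chromosome 12 the median of 384 tested genes was 0.29, with 123 higher and 7 lower in clone 4. Chromosome 15 had a median of 0.30 over 446 genes (155 higher, 20 lower) and chromosome 18 one of 0.27 over 270 genes (83 higher, 5 lower). Chromosome 7 went the other way, with −0.26 over 808 genes (17 higher, 223 lower). On the log2 scale of reads the medians correspond to ratios of clone 4 over clone 3 of 1.28, 1.28, 1.26 and 0.800 for chromosomes 12, 15, 18 and 7. Genes of a chromosome are not replicates, so these medians are a description.

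The clones share the WT cultures in what follows, and each one's own values are given side by side. The median gene of chromosome 12 stood at 0.27 in clone 4 and −0.01 in clone 3, and that of chromosome 7 at −0.19 in clone 4 and 0.06 in clone 3. For chromosome 15 the medians were 0.03 in clone 4 and −0.27 in clone 3. Chromosome 18 had 0.21 in clone 4 and −0.09 in clone 3. Chromosome 5 stood above WT in both clones, at 0.27 in clone 4 and 0.35 in clone 3, and differed little between them (−0.07). The signs were the same for each culture, whose median against the other clone was 0.25 to 0.31 for chromosome 12, 0.28 to 0.32 for chromosome 15, 0.24 to 0.30 for chromosome 18 and −0.27 to −0.24 for chromosome 7.

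In windows of 40 consecutive genes, all 9 windows of chromosome 12 lay between 0.20 and 0.34, all 11 of chromosome 15 between 0.14 and 0.41, all 6 of chromosome 18 between 0.21 and 0.32, and all 20 of chromosome 7 between −0.34 and −0.14. The 196 windows of the chromosomes other than 4, 7, 12, 15 and 18 lay between −0.26 and 0.15. Chromosomes 12, 15 and 18 and the end of chromosome 4 held 37.1% of the genes that were higher in clone 4 and 11.2% of those tested, and chromosome 7 held 22.8% of the lower genes and 7.48% of those tested. After centring each chromosome, 1699 genes differed, and after centring the end of chromosome 4 apart as well, 1628 differed. Copy number was not tested, since the DNA libraries of the series were not analysed here.

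**Figure D4:**
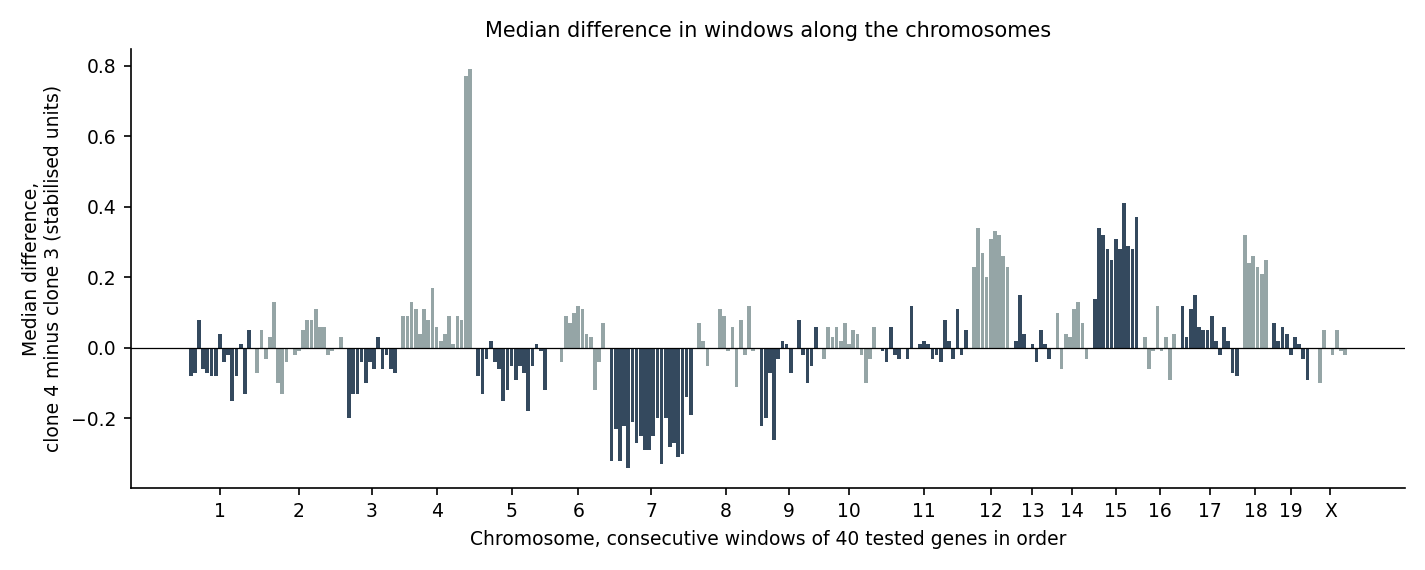
Median difference of clone 4 minus clone 3 (stabilised units) in consecutive windows of 40 tested genes along chromosomes 1 to 19 and X, with shades alternating between chromosomes. Windows of chromosomes 12, 15 and 18 are positive and those of chromosome 7 negative along their whole length, and the last 2 windows of chromosome 4 reach 0.77 and 0.79.

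The steepest step lay on chromosome 4, where it was seen in the data and then measured. From Vps13d to Noc2l (positions 144871045 to 156247616 on GRCm38), the median of 107 genes was 0.76, with 83 higher and 0 lower in clone 4 and 105 positive differences. The 20 genes just before it, Crocc to Pramel12, had a median of −0.05 with 1 higher and 0 lower. Against WT, the median of the 107 genes was 0.14 in clone 4 and −0.64 in clone 3. Park7, a redox-sensitive chaperone, had 3999.7 and 3890.1 normalised reads in clone 4, against 1428 and 1572 in clone 3 and 3319.7 and 3369 in WT (difference 1.29, SE 0.13, adjusted p = 0.000158). Acot7, an acyl-CoA thioesterase, had 3651 and 5159.9 in clone 4, while clone 3 had 1093 and 1232 and WT had 1825 and 1847 (difference 1.75, SE 0.16, adjusted p = 0.000112). Dhrs3, Eno1, Thap3 and Prdm16 lie in this segment too, and Dhrs3 at 3.44, Prdm16 at 2.28 and Thap3 at 1.71 stood well above its median. Rpl22, a ribosomal protein gene of the segment, differed by 0.91 (adjusted p = 0.000607) and by 0.17 after centring, where its call ended.

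**Figure D5:**
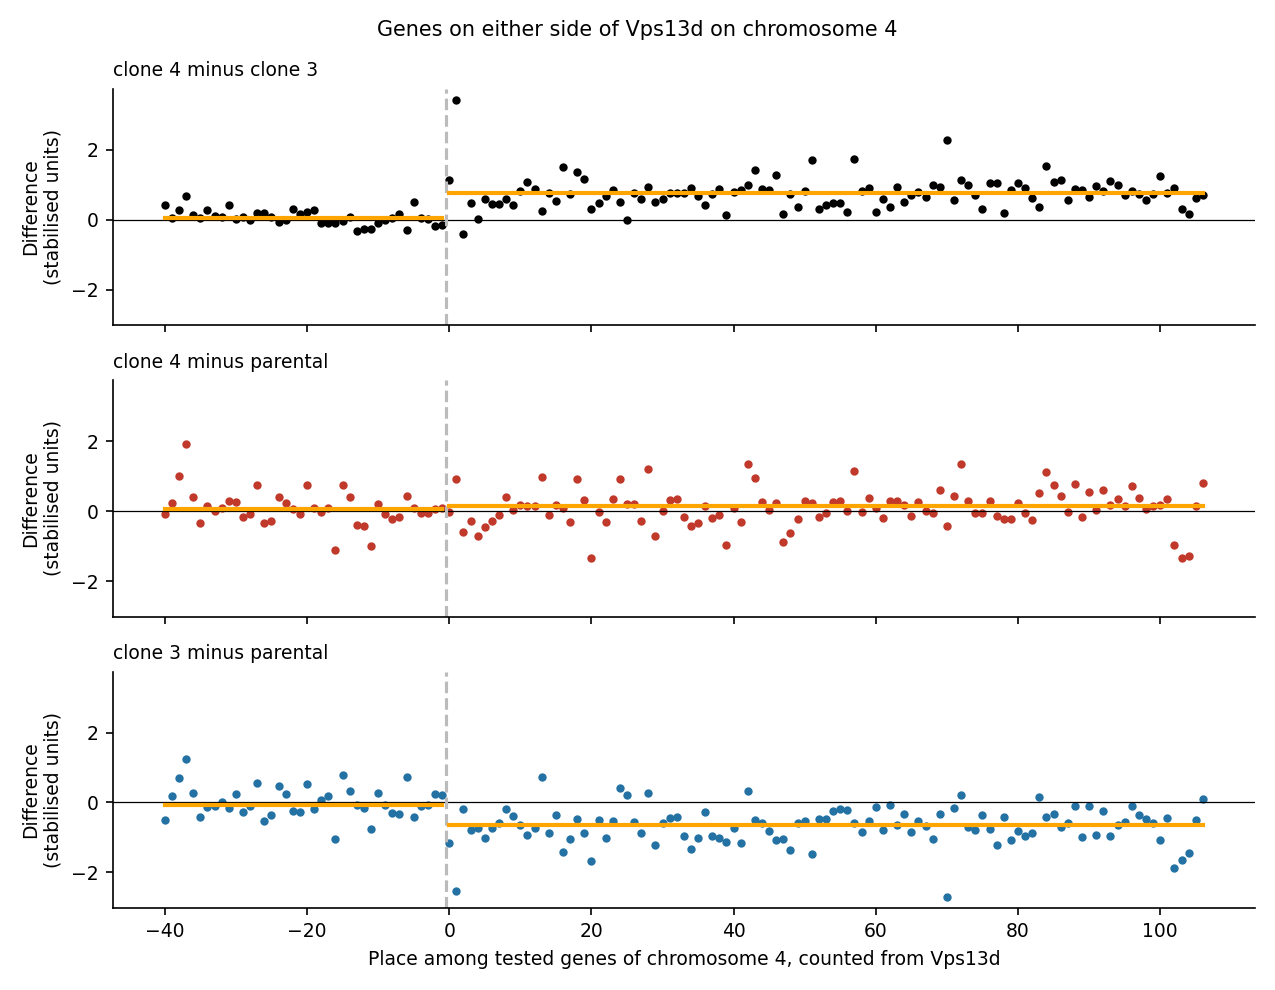
Difference of each tested gene of chromosome 4 from 40 places before Vps13d to the end of the chromosome, for clone 4 minus clone 3, clone 4 minus WT and clone 3 minus WT (stabilised units). Orange lines are medians before and after the dashed line at Vps13d, and after it the median was 0.76 for clone 4 minus clone 3, 0.14 for clone 4 minus WT and −0.64 for clone 3 minus WT.

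A smaller stretch at the start of chromosome 9, also picked from the data, held 19 tested genes (Dync2h1 to Amotl1, positions 6928550 to 14662974) with a median of −0.69, 12 lower and 0 higher in clone 4. The 20 genes after it had a median of −0.04. The 6 tested genes before it had a median of −0.09, with 2 lower and 1 higher. Further along the chromosome, the window of 40 genes from Slc37a2 to Kmt2a had a median of −0.26, with 12 lower and 2 higher. Against WT, the median of the 19 genes was −0.26 in clone 4 and 0.28 in clone 3. Yap1, the coactivator at the end of the Hippo pathway, lies in this stretch. It had 34424 and 38462 normalised reads in clone 4, against 72079 and 70291 in clone 3 and 32726 and 31542 in WT. Both cultures of clone 3 were above all others (difference −0.96, SE 0.11, adjusted p = 0.000377), and the difference of clone 4 from WT did not pass the threshold (0.18, adjusted p = 0.238). Dync2h1, the motor of transport in cilia, had 4099.5 and 4413 in clone 4, against 10977 and 9330.3 in clone 3 and 4100.1 and 4161 in WT (difference −1.21, SE 0.16, adjusted p = 0.000835). A list of 15 tested targets of YAP and TAZ, drawn up after these values were seen and so given no test, had a median of −0.56 and 12 negative differences. In that list the median against WT was −0.43 in clone 4 and 0.18 in clone 3. Ccn1 and Axl, described above, are among its genes.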

How the data were processed

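Polyadenylated RNA of cultured cells was sequenced from stranded libraries, per the labels' protocols. The deposited table holds variance-stabilised read counts on a log2-like scale for 10 libraries; the sources used here name no aligner or counter, and the submitters' processing notes name the builds GRCm38 and mm10. The values inverted to whole reads (100% within 0.01), which gave depth and normalised reads. limma 3.58.1 (R 4.3.3) with a trend was fitted to the stabilised values of all 10 libraries as 5 lines. Genes needed a mean at least 1 above the lowest value, p-values were adjusted by Benjamini-Hochberg over 10803 genes, and the threshold was 0.05. A table of this unit bars a count model as the main test, so limma-voom on recovered reads was an alternative. The fit was tested on simulated data. Sequences were from RefSeq (GRCm38.p6). The clones, gene lists and tests were chosen with earlier results of these data known. Genes named were the 12 largest rises and 12 largest falls, Bap1 and up to 4 called members per list with the smallest adjusted p; Yap1, Dync2h1, Park7, Acot7 and the genes read in 1 clone only were added after their values were seen. Single-cell and DNA libraries were not analysed here.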

Additional observations from a re-analysis of the deposited data

Results flagged for a closer look

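For 9 of the genes with the largest differences or the smallest p-values in their lists, the clones moved past the threshold to opposite sides of WT, with the difference between the clones tested directly. Of these, 6 were above WT in clone 4 and below it in clone 3. Syt4 differed by 7.03 between clone 4 and clone 3, Mcoln3 by 3.65, Dhrs3 by 3.44, Col14a1 by 3.37, Nrp2 by 3.22 and Tspan32 by 2.40. The other 3 were below WT in clone 4 and above it in clone 3. Pik3r5 differed by −3.16, Vgll3 by −2.30 and Ccn1 by −2.29. Against WT, Syt4 stood at 2.06 in clone 4 (limma adjusted p = 7.65e-06) and −4.97 in clone 3 (2.58e-08), and Pik3r5 at −0.86 (0.000668) in clone 4 and 2.29 (1.74e-06) in clone 3. The values against WT share the same WT cultures. Genes named only as list members were not counted here, though the reads of some, such as Sv2a and Steap2, also lay on either side of WT.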

How the results depend on the processing

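The count of 2174 genes was 257 when a difference of at least 1 was also asked, 2020 by limma-voom, 2237 on log2 normalised reads, 2034 after quantile normalisation (1042 higher, 992 lower), 2335 with no filter, 1862 with a filter at 2 above the lowest value, 1699 after chromosome centring, 1628 after segment centring (chosen after seeing the data), 1517 from the 4 libraries alone and 1461 from the 8 knockout libraries (641 lower). Leaving out 1 library gave 623 to 2451 genes, 348 to 1339 higher and 275 to 1112 lower. The labels do not say whether cultures of equal number were grown together. Differences between replicates 1 and 2 correlated at −0.03 for clone 4 and clone 3. For the 10 pairs of lines the values were −0.13 to 0.73, the highest for clones 1 and 2. A low correlation cannot exclude shared rounds of culture, since the numbers may not follow the rounds. With the replicate block 2660 genes differed. The median of chromosome 4 was 0.18 on log2 reads and 0.11 to 0.17 without 1 library. Chromosome 7 had −0.33, −0.28 and −0.27 on log2 reads, with the filter at 2 and after quantile normalisation, and −0.27 to −0.24 without 1 library. On log2 reads and after quantile normalisation, chromosome 12 had 0.35 and 0.26, chromosome 15 had 0.36 and 0.27 and chromosome 18 had 0.32 and 0.24. Without 1 library they were 0.25 to 0.31, 0.28 to 0.32 and 0.24 to 0.30. Differences turned to 0.00 for CYTB, Dct and the mitochondrial median after quantile normalisation, and to −0.13 for Kcnab2 after segment centring; the cause was not tested. Of 139 named genes, 73 stayed past the threshold in each of the 21 alternatives that tested them (123 were tested with the filter at 2), as did the 24 with the largest rises and falls; 61 lost it without clone 3 replicate 1 and 43 without clone 3 replicate 2. Depth limits the genes with few reads, and 2 cultures per clone limit the rest.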
